A study of Homo sapiens with 17 samples.

Results

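The numbered zinc finger (ZNF) genes are the largest set of human genes named for a DNA-binding domain. They were taken here as the protein-coding genes whose symbol is ZNF followed by digits and at most a closing letter, and they were selected on an Input TPM of at least 5. Of 423 such genes in the table, 178 passed and 245 lay below the threshold. They were set beside the 8638 protein-coding genes (PCGs) that passed the same threshold, of which 8460 were not members, out of 18869 genes of all biotypes.

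All samples were HEK293T, an established line from human embryonic kidney, carrying a doxycycline-inducible construct. In RPS2-STAMP cells the construct joins the cytidine deaminase APOBEC1 to the small ribosomal subunit protein RPS2, so that cytosines near a ribosome are read as C-to-U edits. In Control-STAMP cells it encodes APOBEC1 without RPS2. Both lines received 50 ng/ml doxycycline for 24 h and were crosslinked in 0.1% formaldehyde, and ribodepleted RNA was sequenced from the Input and from immunoprecipitations (IPs) of PABPN and of PABPC. The 9 RPS2-STAMP samples were 3 Input, 3 PABPN IP and 3 PABPC IP, and the 8 Control-STAMP samples were 3 Input, 3 PABPN IP and 2 PABPC IP. According to its text the study worked here on the cytoplasmic portion of the cells, a step that the sample labels do not give.

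The files hold 1 value per gene and fraction for each measure, already combined over samples, and a value "with PABPC" or "with PABPN" is that of the PABPC IP or PABPN IP. Editing is given as normalised EPKM, edit counts adjusted for gene length and sequencing depth, from which the editing of Control-STAMP was subtracted. RNA level is given as an average TPM that sums exonic and intronic signal. There is therefore no replicate spread behind any value below, no difference was tested, and the number of reads or edits behind a value cannot be read from the files.

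A classical zinc finger of this family folds around a zinc ion held by a pair of cysteines and a pair of histidines, and fingers follow each other as an array joined by a conserved linker. Many members also carry a KRAB box, which recruits TRIM28 and through it the histone methyltransferase SETDB1 to silence the bound DNA, often a retroelement. The genes arose by repeated duplication, with large clusters on chromosome 19. PABPN coats newly made poly(A) tails in the nucleus, and PABPC is the poly(A) binding protein that mRNAs carry during translation in the cytoplasm.

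The name was checked against the coding sequences of GENCODE release 44, in which all 178 members were found. A C2H2 finger motif was present in 174 members, and the number of motifs per protein ran from 0 to 36. The 4 members without a motif were ZNF330, ZNF503, ZNF703 and ZNF839, so the symbol does not assure a classical finger. A KRAB box was found in 59 members. Chromosome 19 held 47 members, 23 of them with a KRAB box, and chromosomes 7 and 16 held 19 each.

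The coding stretch of the first finger that is followed by the canonical linker is printed for 6 members. The finger is the domain that the family is named for, and cytosines are the bases that the editing enzyme can change. Members were chosen by symbol, and not all of them have this unit. The number of canonical linkers per protein ran from 0 to 17, and ZNF335 had 13 finger motifs and 0 such linkers. ZNF121, ZNF460 and ZNF736 were among the members with the highest PABPN-to-PABPC ratio of RNA level, ZNF358 was among the lowest, ZNF664 had the highest Input editing and ZNF768 showed editing only in the PABPC IP. Sequences are given 5′ to 3′ on the coding strand, read from GENCODE release 44 transcripts and checked against hg38, with the linker codons in capitals.

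ZNF121: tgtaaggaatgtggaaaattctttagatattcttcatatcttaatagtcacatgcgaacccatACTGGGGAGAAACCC
ZNF460: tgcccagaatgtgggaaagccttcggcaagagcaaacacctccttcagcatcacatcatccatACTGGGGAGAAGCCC
ZNF736: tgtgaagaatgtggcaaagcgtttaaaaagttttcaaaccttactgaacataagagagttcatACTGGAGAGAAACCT
ZNF358: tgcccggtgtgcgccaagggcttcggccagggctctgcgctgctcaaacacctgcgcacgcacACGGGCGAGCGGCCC
ZNF664: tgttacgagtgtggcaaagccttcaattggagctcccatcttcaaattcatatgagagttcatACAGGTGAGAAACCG
ZNF768: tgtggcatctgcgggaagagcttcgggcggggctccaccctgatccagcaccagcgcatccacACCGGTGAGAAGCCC

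Each stretch is 78 bases long and lies in a coding exon. ZNF121 is read from the minus strand at chr19:9566600-9566677 (hg38) in exon 4 of 4, ZNF460 from the plus strand at chr19:57291133-57291210 in exon 3 of 3, and ZNF736 from the plus strand at chr7:64348470-64348547 in exon 4 of 4. ZNF358 is read from the plus strand at chr19:7520035-7520112 in exon 2 of 2, ZNF664 from the plus strand at chr12:124012409-124012486 in exon 5 of 5, and ZNF768 from the minus strand at chr16:30525276-30525353 in exon 2 of 2. The stretches encode the same fold with different base composition. The number of cytosines was 11 in ZNF736, 14 in ZNF121, 16 in ZNF664, 24 in ZNF460, 27 in ZNF768 and 30 in ZNF358, and the GC content ran from 35.9% in ZNF736 to 73.1% in ZNF358. Over whole canonical transcripts the GC content of the members reached 70.9%, with a median of 49.0% against 48.2% for all PCGs.

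Members were present at lower RNA levels than other PCGs in each fraction, and least so in the PABPN IP. The median TPM of members was 10.9 in Input, 17.0 with PABPC and 34.9 with PABPN. For other PCGs it was 18.4, 34.9 and 43.4. TPM with PABPN exceeded TPM with PABPC for 147 of 178 members, or 82.6%, against 54.7% of other PCGs.

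The distribution of RNA between the IPs was expressed as the log2 ratio of PABPN to PABPC TPM with a pseudocount of 0.5, centred on the median of all PCGs, which lay at 0.14. On this scale 115 members (64.6%) were above 0.5, where 31.5% of PCGs were, and 15 members (8.43%) were below -0.5, where 30.0% of PCGs were. The remaining 48 lay between. The median of members was 0.82, with quartiles of 0.19 and 1.38, beside quartiles of -0.63 and 0.72 for all PCGs. Zinc finger RNAs were thus found mostly on the PABPN side of the typical PCG, with a tail of 15 genes on the PABPC side.

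**Figure D1:**
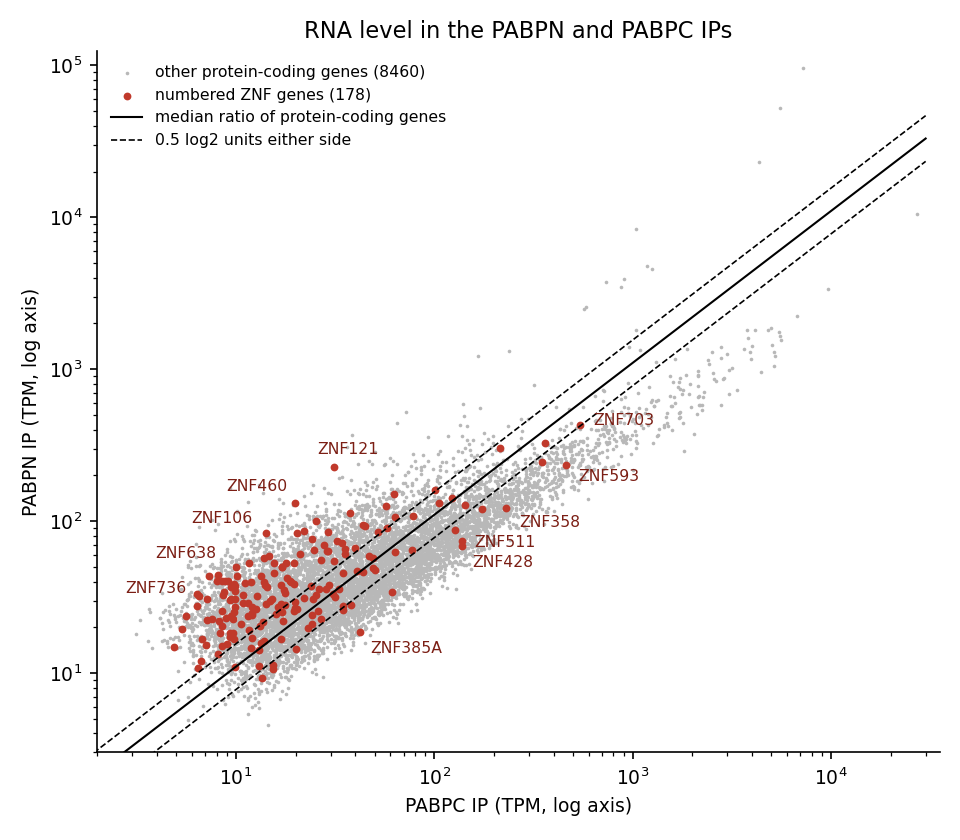
Average TPM in the PABPC IP (x, log axis) and in the PABPN IP (y, log axis) for the 178 ZNF genes (red) and 8460 other PCGs (grey), with 1 point per gene and no error bars because the values are pooled. The solid line is the median PCG ratio and the dashed lines lie 0.5 log2 units to each side, with 115 members above the upper line and 15 below the lower.

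The ratio followed RNA level and transcript length in all PCGs, so members were also set beside other PCGs of the same band. Across the 178 members Spearman's rho of the ratio was -0.34 with Input TPM and 0.60 with transcript length, and across the 8454 other PCGs with annotation it was -0.51 and 0.61. These are descriptions across genes of the same libraries, and genes are not independent replicates. At an Input TPM of 5 to 10 the median of 82 members was 1.10 and that of other PCGs 0.56. The medians were 0.81 and 0.25 at 10 to 20 (55 members), 0.56 and -0.21 at 20 to 50 (31 members), and -0.39 and -0.83 at 50 and above (10 members). Members were thus higher in each band, and both sets declined with level.

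For transcripts shorter than 2000 bases the median ratio was -0.24 in 20 members and -0.75 in other PCGs. It was 0.35 and -0.20 at 2000 to 3500 bases (57 members), 0.91 and 0.18 at 3500 to 5000 bases (44 members), and 1.38 and 0.81 at 5000 bases and above (57 members). With level and length combined, the median of members was above that of other PCGs in each combination. For an Input TPM of 5 to 20 and a transcript of 3500 bases or more, 71 of 81 members (87.7%) were above 0.5, against 59.2% of other PCGs. For an Input TPM of 20 and above and a transcript below 3500 bases, 2 of 21 members (9.52%) were, against 5.76%. That share rests on 2 genes, and the medians there were -0.28 and -0.72. How far level and length account for the position of members was not tested.

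**Figure D2:**
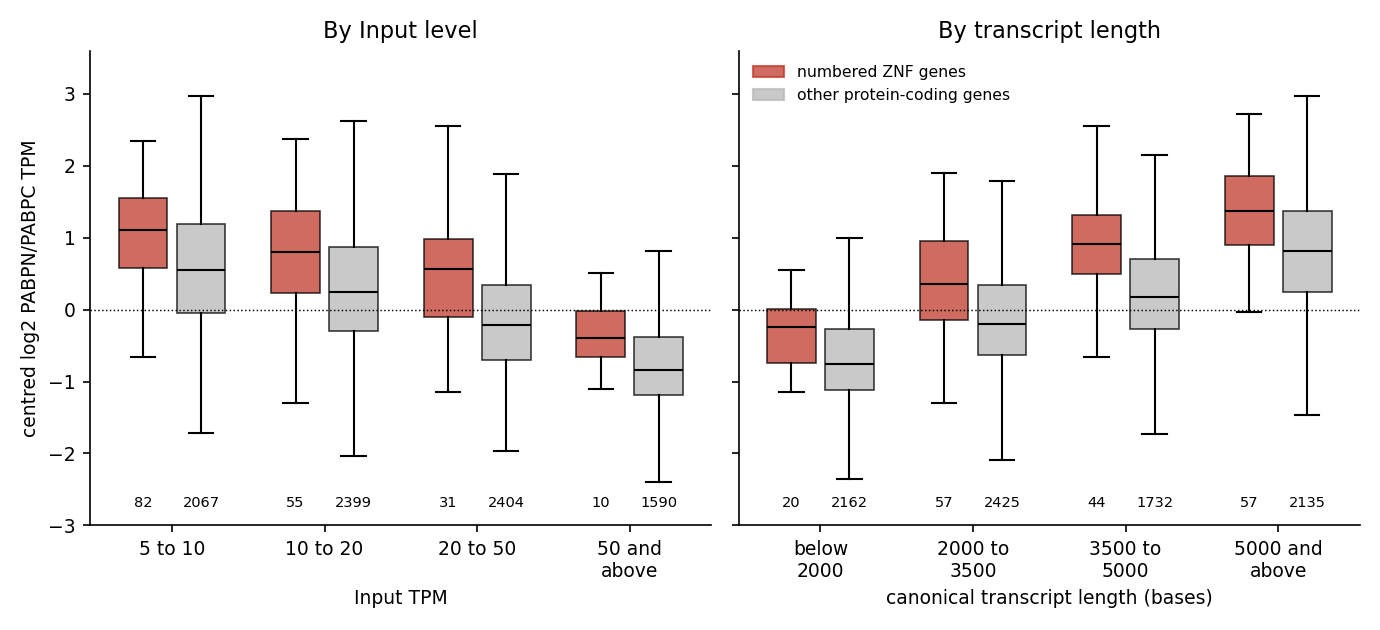
Centred log2 ratio of PABPN to PABPC TPM for ZNF genes (red) and other PCGs (grey) in bands of Input TPM (left) and canonical transcript length (right); boxes give the median and quartiles over genes, whiskers reach 1.5 interquartile ranges, points beyond are not drawn, and the number of genes stands under each box. The median of members lies above that of other PCGs in each of the 4 bands of both panels.

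ZNF121 (chromosome 19) had the highest ratio of the family. Its TPM was 30.7 in Input, 31.2 with PABPC and 228 with PABPN, a centred log2 ratio of 2.72. ZNF460 (chromosome 19), a KRAB member with 11 finger motifs, came next with 26.1, 19.9 and 131 TPM and a ratio of 2.55. For both genes the PABPC IP was close to or below the Input while the PABPN IP stood well above it.

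ZNF106, a nuclear RNA-binding protein of chromosome 15, had 11.7 TPM in Input, 14.3 with PABPC and 83.3 with PABPN (ratio 2.37). ZNF736 (chromosome 7), which lay just above the selection threshold, had 5.01, 7.32 and 43.3 TPM (2.35). ZNF638 (chromosome 2), a nuclear RNA-binding protein linked to splicing, had 11.3, 8.14 and 44.3 TPM (2.24). In all, 11 of 178 members exceeded a ratio of 2, where 2.85% of PCGs did.

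The members at the opposite end were mostly GC-rich. ZNF385A (chromosome 12), an RNA-binding member with 3 finger motifs, had 16.6 TPM in Input, 42.3 with PABPC and 18.7 with PABPN (-1.29). ZNF428 (chromosome 19) had 45.2, 138 and 68.4 TPM (-1.15). ZNF593, the counterpart of a yeast factor of large ribosomal subunit assembly, had 153, 461 and 235 TPM (-1.11).

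ZNF358 had 86.7 TPM in Input, 231 with PABPC and 122 with PABPN (-1.05). ZNF511 had 48.2, 137 and 74.0 TPM (-1.02). Its gene is overlapped on the same strand by the annotated readthrough gene ZNF511-PRAP1, and 13.3% of the 75-base words of the ZNF358 transcript also occur in another annotated protein-coding transcript. For ZNF358 no gene name was recorded for that match, and 1 annotated gene overlaps it on the same strand. Of the 15 members below -0.5, 12 had a transcript GC content of 60% or more, 8 had a transcript shorter than 2000 bases, and 1 (ZNF688) was called with a KRAB box. ZNF213, also among the 15, scored 16.6 bits, under the cutoff of 20 bits for that call. Across all PCGs the upper quartile of transcript GC content was 56.8% and the lower quartile of transcript length 1978 bases. Whether these features are as frequent among the PCGs below -0.5 was not tested.

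GC content divided the members more than it divided other PCGs. Spearman's rho of the ratio with transcript GC content was -0.45 across members and -0.16 across other PCGs. The median ratio was 1.12 in 69 members below 45% GC, 1.39 in 24 members at 45 to 50%, 0.65 in 41 members at 50 to 60% and -0.15 in 44 members at 60% and above. Other PCGs had 0.15, 0.05, -0.18 and -0.28 in the same bands. At 60% GC and above 13 of 44 members (29.5%) exceeded 0.5 beside 23.4% of other PCGs, so the separation from other PCGs was smallest there. GC content went together with 3′ UTR length in members. Below 50% GC, 40 members had a 3′ UTR below 2000 bases and 53 a longer one. At 50% GC and above these numbers were 62 and 23. Among members with at least 50% GC, 37.1% (23 of 62) with a 3′ UTR below 2000 bases exceeded 0.5. With a longer 3′ UTR 69.6% (16 of 23) did. Other PCGs had 22.1% and 37.0% in the same classes.

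The domain content of the protein ran alongside. The median ratio was 0.16 in the 4 members with 0 finger motifs, 0.38 in 42 members with 1 to 4, 0.89 in 66 members with 5 to 9, 0.95 in 48 members with 10 to 14 and 0.94 in 18 members with 15 or more. Of KRAB members 48 of 59 (81.4%) were above 0.5 and 1 was below -0.5, and of the others 67 of 119 (56.3%) were above and 14 below, where 31.5% of PCGs were above and 30.0% below. The medians of these groups were 1.00 and 0.62. On chromosome 19, home of the largest clusters, 29 of 47 members (61.7%) exceeded 0.5, on chromosome 7 14 of 19 (73.7%) and on chromosome 16 9 of 19 (47.4%), each beside the same 31.5% of PCGs. These splits overlap with GC content and length, and their separate parts were not tested.

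**Figure D3:**
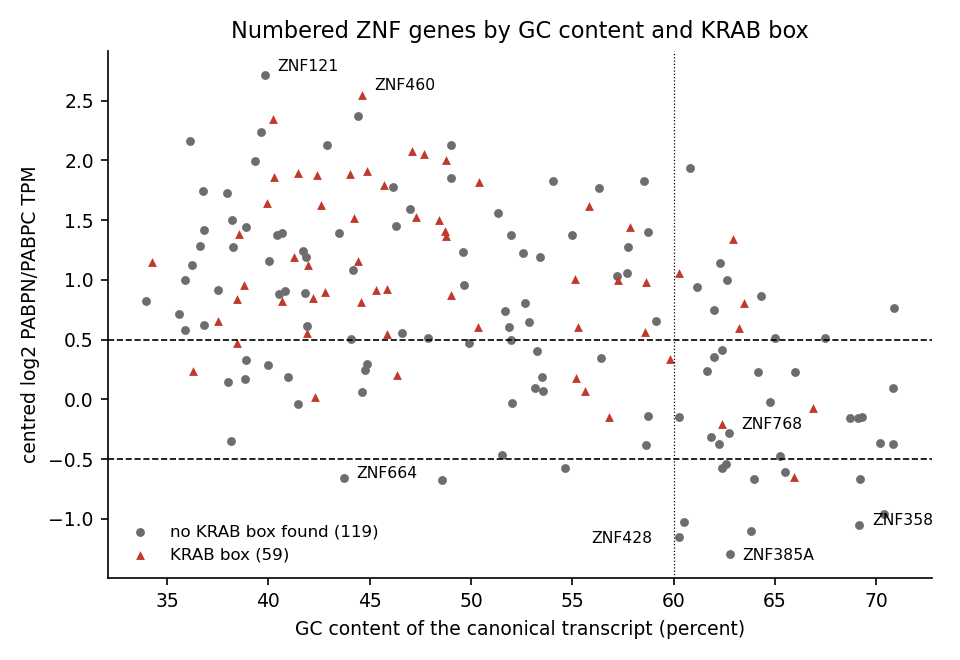
Centred log2 ratio of PABPN to PABPC TPM (y) against the GC content of the canonical transcript in percent (x) for the 178 ZNF genes, with KRAB members as red triangles (59) and the others as grey circles (119). Dashed lines mark 0.5 and -0.5 and the dotted line 60% GC, to the right of which 12 of the 15 genes below -0.5 lie.

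Relative to the Input, the PABPN IP held more ZNF RNA and the PABPC IP less than for the typical PCG. Because the Input TPM chose the members, these ratios are a description that the choice itself can move, and both share the Input. For the PABPN IP against Input 84 members (47.2%) were above 0.5 on the centred scale, where 23.9% of PCGs were, and 9 (5.06%) were below -0.5, where 20.5% were. For the PABPC IP against Input 5 members (2.81%) were above 0.5, where 9.40% of PCGs were, and 65 (36.5%) were below -0.5, where 18.8% were. The medians of members were 0.46 for PABPN and -0.31 for PABPC. Before centring both were positive, at 1.52 and 0.65, because the median PCG had a higher TPM in either IP than in the Input by 1.06 and 0.96 log2 units.

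Editing told apart the fractions differently from RNA level. The median editing of members was below that of other PCGs in each fraction, and it was nearer theirs in both IPs than in Input. The median EPKM of members was 0.0116 in Input, 0.0396 with PABPC and 0.0221 with PABPN, beside 0.0332, 0.0563 and 0.0367 in other PCGs. An EPKM above 0 was listed for 116 members in Input (65.2%, where 79.7% of PCGs had it), for 148 with PABPC (83.1%, beside 83.7%) and for 115 with PABPN (64.6%, beside 73.7%). The share with PABPC was close to that of all PCGs at this threshold, but it was 75.9% beside 80.6% at an Input TPM of at least 1, and 74.2% beside 78.8% when an EPKM above 0.01 was required.

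**Figure D4:**
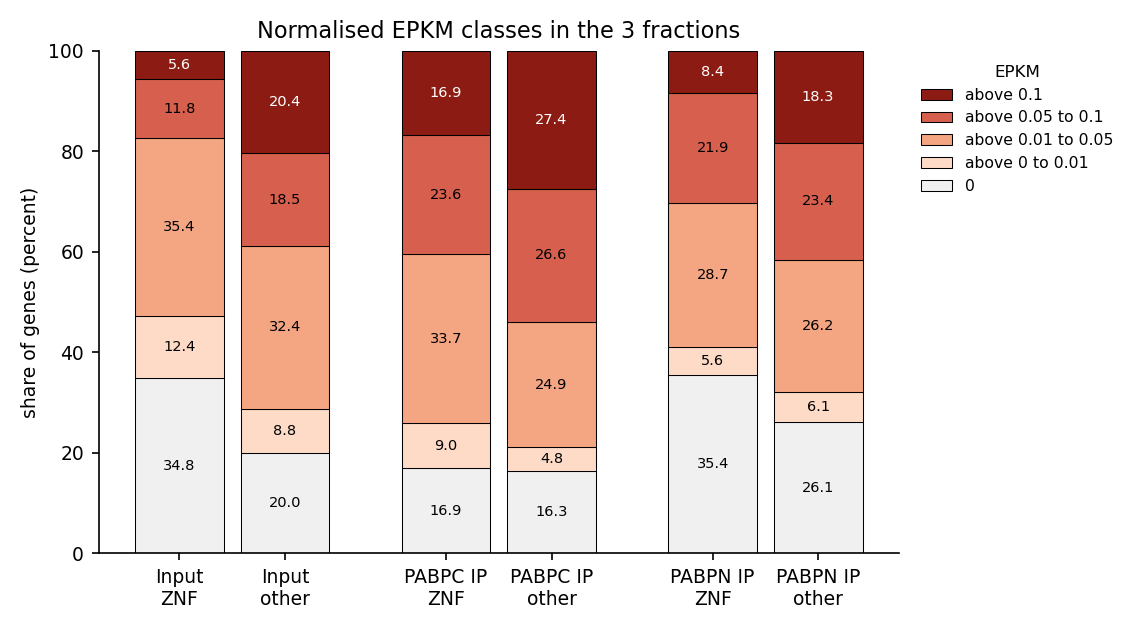
Share of genes in percent (y) by class of normalised EPKM in each fraction, for the 178 ZNF genes and the 8460 other PCGs. The class at 0 holds 34.8% of ZNF genes in Input, 16.9% with PABPC and 35.4% with PABPN, and it holds 1692 other PCGs in Input, 1380 with PABPC and 2205 with PABPN.

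High values were scarcer among members in each fraction. An EPKM above 0.1 was found for 10 members in Input (5.62%), 30 with PABPC (16.9%) and 15 with PABPN (8.43%), and for 20.4%, 27.4% and 18.3% of other PCGs. Editing was above 0 in all fractions for 66 members (37.1%, beside 52.6% of PCGs), in both IPs but not the Input for 31 (17.4%, beside 10.5%), and in the PABPC IP only for 18 (10.1%, beside 5.06%). The 6 members at 0 throughout (3.37%, beside 1.84% of PCGs) were ZNF174, ZNF263, ZNF276, ZNF280C, ZNF593 and ZNF688.

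Because EPKM was higher at higher TPM across genes, the comparison was repeated in bands of Input TPM. At 5 to 10 TPM the median EPKM of members was 0.0053 in Input against 0.0125 in other PCGs, while with PABPC it was 0.0323 against 0.0294. At 10 to 20 TPM the Input medians were 0.0120 and 0.0249, and those with PABPC 0.0296 and 0.0485. At 20 to 50 TPM they were 0.0375 and 0.0524 in Input and 0.0832 and 0.0770 with PABPC. At 50 TPM and above, with 10 members, they were 0.0262 and 0.143 in Input and 0.160 and 0.119 with PABPC. Within these 4 bands the Input median of members was lower each time, and the PABPC median was higher in all bands but that of 10 to 20 TPM.

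Across members the EPKM of the PABPC IP and of the PABPN IP were nearly unrelated, with a Spearman's rho of 0.09, beside 0.17 across other PCGs. Of the 178 members, 104 (58.4%) carried more editing with PABPC, where 57.3% of PCGs did, and 62 (34.8%) more with PABPN, where 37.0% did. With a pseudocount of 0.01, 64 members (36.0%) had at least 2-fold more editing in the PABPC IP, where 37.0% of PCGs did, and 40 (22.5%) had at least 2-fold less, where 20.5% did. These shares were near those of all PCGs, but they changed with the genes counted. Among the 97 members with edits in both IPs, 21.6% were at least 2-fold higher with PABPC and 23.7% at least 2-fold lower, beside 28.4% and 17.1% of such PCGs. When the Input threshold was lowered to a TPM of 1, giving 369 members, 25.5% were higher and 24.7% lower, beside 33.9% and 21.9% of PCGs. With a pseudocount of 0.1 on the 178 members, the shares dropped to 6.74% higher and 1.69% lower, beside 9.92% and 3.91% of PCGs. For members the shares were nearly level in both of these gene sets. They rest on 21 genes higher and 23 lower with edits in both IPs, and on 94 and 91 at a TPM of 1. For PCGs the higher share lay with PABPC in both. In 51 of the 178 members editing was above 0 with PABPC and at 0 with PABPN, where 20.6% of PCGs had this pattern, and in 18 it was the reverse, where 10.6% had it.

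Against the Input, 81 members (45.5%) had at least 2-fold more editing in the PABPC IP, where 34.5% of PCGs did, and 23 (12.9%) at least 2-fold less, where 20.2% did. In the PABPN IP 59 members (33.1%) were at least 2-fold above the Input, where 27.4% of PCGs were, and 41 (23.0%) at least 2-fold below, where 31.0% were. Among genes of 5 to 20 Input TPM these shares lay nearer to those of PCGs. At least 2-fold above Input were 43.8% of 137 members with PABPC, beside 40.04% of PCGs, and 33.6% with PABPN, beside 33.8%. At an Input TPM of at least 1 the share with PABPC was 36.0% beside 34.03%. Editing was highest with PABPC for 88 members (49.4%, beside 42.6% of PCGs), with PABPN for 51 (28.7%, beside 27.9%) and in Input for 33 (18.5%, beside 27.6%).

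The most abundant members in the Input differed from each other in editing. ZNF703, a transcriptional cofactor without a classical finger array and the most abundant, had 379 TPM and an EPKM of 0.119 in Input, 0.122 with PABPC and 0.0673 with PABPN. Its paralogue ZNF503 had 168 TPM and EPKM values of 0.0175, 0.0724 and 0.0625. ZNF593 followed with 153 TPM and was listed at 0 in each fraction. ZNF768 had 147 TPM and EPKM values of 0, 0.198 and 0. The order of these genes by TPM and by EPKM therefore differed.

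ZNF664, with 112 TPM, had the highest Input editing, at 0.296, with values of 0.199 with PABPC and 0.122 with PABPN. ZNF524 had 0.279, 0.0611 and 0, and ZNF358 had 0.147, 0.269 and 0.143. ZNF770 had 0.124, 0.0832 and 0.0406. ZNF664, ZNF524 and ZNF770 were higher in the Input than in either IP, whereas ZNF358 was highest in the PABPC IP.

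In the PABPC IP the highest value was that of ZNF511, at 0.312, where Input had 0.137 and PABPN had 0. ZNF428 had 0.0671 in Input, 0.291 with PABPC and 0.237 with PABPN, the highest PABPN value of the family. ZNF581 had 0.0350, 0.265 and 0, and ZNF48 had 0.0173, 0.185 and 0. ZNF511, ZNF581, ZNF48 and ZNF768 were thus listed with edits in the PABPC IP and at 0 in the PABPN IP.

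The reverse was seen for ZNF736, with 0.0126 in Input, 0.0210 with PABPC and 0.205 with PABPN, the largest difference in that direction. ZNF460 had 0.0514, 0.0175 and 0.126, and ZNF280B had 0.0278, 0 and 0.106. ZNF587, a KRAB member that represses endogenous retroviruses, had 0, 0.0368 and 0.138, and 18.6% of its 75-base words also occur in another annotated protein-coding transcript, that of ZNF417 among them. ZNF398 (0.0466, 0.0595 and 0.149) and ZNF395 (0.0117, 0.112 and 0.158) were also highest in the PABPN IP. Across the 178 members the RNA ratio and the PABPN EPKM had a Spearman's rho of -0.02, and genes of high PABPN editing lay at either end of the ratio, such as ZNF460 at 2.55 and ZNF428 at -1.15.

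Members with known roles on RNA or ribosomes were described as a list of 10 genes, of which 9 passed the threshold and ZNF830 lay below it. The list was not complete. It left out ZNF385A, named above as RNA-binding, which had the lowest RNA ratio of the family (-1.29). The EPKM of ZNF385A was 0 in Input, 0.176 with PABPC and 0.0406 with PABPN. The counts below cover the 9 listed genes only. On the PABPN-to-PABPC scale of RNA level 7 of the 9 were above 0.5 (31.5% of PCGs were) and 1, ZNF593, was below -0.5 (30.0% of PCGs). In editing, 3 of 9 exceeded the other IP by 2-fold or more with PABPC (37.0% of PCGs did) and 4 of 9 with PABPN (20.5% did), and the list's median EPKM was 0.0591 in Input, 0.0137 with PABPC and 0.0368 with PABPN. Its Input median was above that of all PCGs (0.0326) and its PABPC median below theirs (0.0558).

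ZNF598, the ubiquitin ligase that marks collided ribosomes, had an EPKM of 0.0662 in Input, 0.280 with PABPC and 0.000680 with PABPN. ZNF622, which takes part in maturation of the large ribosomal subunit, had the opposite arrangement, with 0.0591, 0 and 0.172. The TPM of ZNF598 was 55.6, 101 and 159 and that of ZNF622 12.1, 13.8 and 16.3, so both were present in each fraction. ZNF593 was listed at 0 in each.

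ZNF346, which binds double-stranded RNA, had 0.0373 in Input, 0 with PABPC and 0.0368 with PABPN. ZNF326, which couples transcription to splicing, had 0.0810, 0.0213 and 0.0439. ZNF638 had 0.0626, 0.0137 and 0.0443. ZNF207, listed although the role given here is that of a spindle assembly factor binding microtubules, had 0.0481, 0.0130 and 0.0440. These 4 genes had their lowest value with PABPC. ZNF106, with 0.0233, 0.0895 and 0.00476, and ZNF473, a factor of histone mRNA processing with 0.0928, 0.0487 and 0, were lower in the PABPN IP instead.

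**Figure D5:**
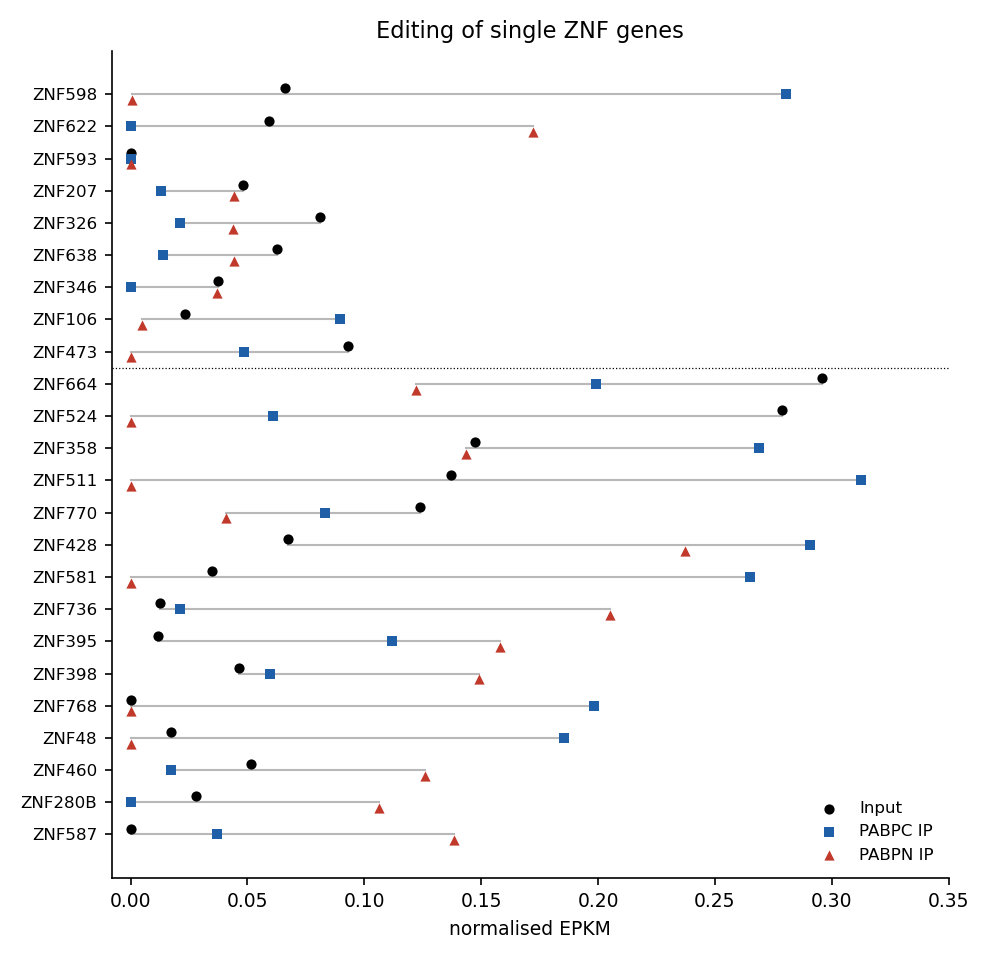
Normalised EPKM (x) of single ZNF genes in Input (black circles), with PABPC (blue squares) and with PABPN (red triangles), with 1 pooled value per fraction and markers offset vertically for clarity. The 9 genes listed for RNA or ribosome roles stand above the dotted line. The members with the highest levels or largest differences stand below it. ZNF598 is high with PABPC (0.280) and ZNF622 with PABPN (0.172).

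Of 20 listed promoter-binding activators and cofactor-linked members, 15 passed the threshold, 10 of them above 0.5 on the RNA scale (31.5% of PCGs) and 0 below -0.5 (30.0%). Their median EPKM was 0.0107 in Input, 0.0408 with PABPC and 0.0344 with PABPN, and a difference of 2-fold or more favoured PABPC in 4 of the 15 and PABPN in 3, where it did so in 37.0% and 20.5% of PCGs. ZNF687 and ZNF592, partners in a chromatin reader complex, had 0.0211, 0.104 and 0 and 0.0413, 0.124 and 0.0580. Both had their highest value in the PABPC IP.

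ZNF143, an activator bound at many promoters, had an EPKM of 0, 0 and 0.0353, and its paralogue ZNF76 had 0, 0.0162 and 0. ZNF410, the activator of the remodeller gene CHD4, had 0, 0.0846 and 0.0573, and 82.7% of its 75-base words occur in another annotated protein-coding transcript. No gene name was recorded for that match, and 2 annotated genes overlap ZNF410 on the same strand. Whether the match lies at the same locus was not tested. ZNF217, a partner of corepressor complexes, had 0, 0.0449 and 0.109. ZNF143, ZNF76, ZNF410 and ZNF217 thus shared an Input value of 0, with edits in a single IP for ZNF143 and ZNF76 and in both for ZNF410 and ZNF217.

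Of 13 listed members with a SCAN domain, a dimerisation module, 10 passed the threshold, 6 of them above 0.5 on the RNA scale (31.5% of PCGs) and 1 (ZNF213) below -0.5 (30.0%). The list was set by hand without a search for the domain, so it may not hold all members with one. ZNF397 (2.13) and ZNF202 (1.85) had the highest ratios of the list. ZNF444 had an EPKM of 0.0603 in Input, 0.134 with PABPC and 0.00864 with PABPN, and ZNF24 had 0.0757, 0.0842 and 0.0210. ZNF500 had 0, 0.0131 and 0.0767. Of the 10, 3 had at least 2-fold more editing with PABPC and 3 with PABPN, where 37.0% and 20.5% of PCGs did.

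A list of 6 members known for retroelement repression or imprint maintenance was not complete. It left out ZNF587, which is named above for repression of endogenous retroviruses and passed the threshold. Among the 6 listed, only ZNF445, which maintains imprints, passed. Its TPM was 6.43 in Input, 6.49 with PABPC and 32.1 with PABPN, a ratio of 2.08, and its EPKM was 0.0257, 0.00863 and 0. ZNF10, ZNF91, ZNF649 and ZNF765 were below the threshold, and ZNF93 was not matched in the table.

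The corepressor machinery that KRAB members act through is encoded by other genes, and 19 of 20 listed genes passed the threshold. On the PABPN-to-PABPC scale of RNA level 13 of 19 were above 0.5 (31.5% of PCGs) and 3 below -0.5 (30.0%), with a median of 1.00. TRIM28 itself had 255 TPM in Input, 345 with PABPC and 262 with PABPN (-0.53), and its EPKM was 0.241, 0.293 and 0.0746. SETDB1 had 14.5, 13.6 and 47.3 TPM (1.63) and an EPKM of 0, 0.0631 and 0.0841. The scaffold protein and the methyltransferase thus lay on opposite sides of the typical PCG. The median EPKM of the 19 genes, 0.0160 in Input, 0.0631 with PABPC and 0.0412 with PABPN, exceeded that of the ZNF members each time. All PCGs had 0.0326, 0.0558 and 0.0364, so the 19 genes lay below them in Input. EPKM was higher at higher TPM, and the 19 genes were not matched to the members in RNA level.

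Other finger families also lay mostly above 0.5 in RNA level, where 31.5% of PCGs and 64.6% of ZNF members were. Above 0.5 on the PABPN-to-PABPC scale were 24 of 31 ZBTB genes, which join fingers to a BTB dimerisation domain, 7 of 8 ZSCAN genes, 5 of 5 ZKSCAN genes and 6 of 8 ZFP genes. Over these 52 genes the median was 1.12, beside 0.82 for the ZNF members, and the difference was not tested. Their median EPKM was 0.0119 in Input, 0.0416 with PABPC and 0.0276 with PABPN, beside 0.0116, 0.0396 and 0.0221 for the members.

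The selection threshold cut through a continuous range. Just inside it were ZNF736 at 5.01, ZNF619 at 5.03 and ZNF79 at 5.08 Input TPM, and just outside ZNF695 at 4.99, ZNF649 at 4.97 and ZNF2 at 4.95. Their PABPN-to-PABPC ratios were 2.35, 0.92 and 1.37 inside and 0.45, 1.09 and 0.63 outside. Another annotated gene overlaps 122 members on either strand and 59 on the same strand, and 8 members share at least 10% of their 75-base words with another annotated protein-coding transcript. Whether reads or edits were exchanged between such genes was not tested.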

How the data were processed

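Ribodepleted, stranded libraries of Input, PABPN IP and PABPC IP RNA from 9 RPS2-STAMP and 8 Control-STAMP samples were processed by the authors. Per the labels, reads were aligned to hg38 with STAR and counted with featureCounts 2.0.2. The deposited EPKM is a pooled signal, and the deposited TPM is a pooled average. The authors obtained TPM by adding exonic and intronic TPM, counted on an annotation cleared of readthrough transcripts and of stretches where genes overlap, and averaged it per fraction. They subtracted the editing of the control from EPKM. Which samples entered each average, how negative differences were treated and the strand setting are not given in the sources used here. Intronic signal therefore contributes to TPM, and a 0 in EPKM can hold any editing at or below that of the control.

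Computed here were log2 ratios (pseudocount 0.01 for EPKM, 0.5 for TPM, the latter centred on the median of PCGs with an Input TPM of at least 5), shares past 2-fold or 0.5, medians and quartiles. The ratio and share steps were tested on simulated data. With 1 value per gene and fraction, no test was run. Members and lists were chosen with earlier results of these data known. Gene features came from the canonical transcripts of GENCODE release 44. Finger motifs were counted in their translations as a pair of cysteines 2 or 4 residues apart, 12 residues and a pair of histidines 3 to 5 residues apart, in place of the RefSeq proteins first planned. A KRAB box was called where a position weight matrix over 40 residues, built from ZNF proteins, scored at least 20 bits. Members under it count as without, such as ZNF213 at 16.6 and ZNF202 at 8.25 bits, so boxes of lower score can be missed. Genes named in the text were the 5 highest in Input TPM and in EPKM of each fraction, the 5 largest EPKM differences between the IPs and the 5 extreme TPM ratios in each direction, the 3 genes on each side of the threshold, and listed genes with known roles. ZNF330, ZNF839, ZNF276, ZNF280C, ZNF688 and the partner genes named were outside this rule and were chosen after their values were seen. The software was Biopython 1.88, pandas 2.3.3, matplotlib 3.10.9, NumPy 2.4.6 and SciPy 1.17.1 under Python 3.11.15.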

Additional observations from a re-analysis of the deposited data

How the results depend on the processing

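Of 180 recomputed values, 125 stayed within the 95% interval over genes of the reported value (Wilson for shares, order statistics for medians), 54 moved outside it and 1 changed sign, and where a value moved the cause was not tested. The intervals describe spread over genes and leave out replicate error. Beside a value for members, that of all PCGs under the same setting is given in parentheses. At an Input TPM of at least 1 (369 members) the median EPKM was 0.0043 (0.0195) in Input and 0.0161 (0.0386) with PABPC, 75.9% (80.6%) had edits with PABPC, 25.5% (33.9%) were 2-fold higher with PABPC than with PABPN and 24.7% (21.9%) lower, 36.0% (34.03%) were 2-fold above Input with PABPC and 15.4% (26.6%) 2-fold below Input with PABPN. At 10 TPM (96 members) the medians were 0.0173 (0.0469) and 0.0467 (0.0704), and 18.8% (21.9%) with PABPC and 30.2% (34.5%) with PABPN were 2-fold below Input. An EPKM above 0.01 was held by 52.8% (70.8%) in Input and 74.2% (78.8%) with PABPC. A pseudocount of 0.1 on EPKM left 6.74% (9.92%) 2-fold higher and 1.69% (3.91%) 2-fold lower with PABPC than with PABPN, 8.43% (6.81%) and 1.12% (4.76%) against Input for PABPC, and 3.93% (4.50%) and 1.69% (7.88%) for PABPN. With genes above 0 in both fractions only, 21.6% (28.4%) of 97 members were 2-fold higher with PABPC than with PABPN and 23.7% (17.1%) lower, 37.4% (29.4%) of 99 were 2-fold above Input with PABPC and 16.9% (23.9%) of 77 were 2-fold below it with PABPN. With TPM ratios centred anew on the PCGs of 5 to 20 Input TPM, the PABPN-to-PABPC ratio of the 137 members there had a median of 0.53 with 52.6% (30.8%) above 0.5; PABPN against Input had a median of 0.31 with 37.2% (21.8%) above and 9.49% (19.8%) below, and 27.0% (18.01%) were below for PABPC. With the reported centre kept, which was added after seeing the data, the same 137 members had 71.5% (45.7%) above 0.5 and 5.11% (13.7%) below for PABPN to PABPC, a median of 0.92, and 0% (3.67%) above for PABPC against Input. The centre likewise followed the gene set at 1 and 10 TPM. Kept, it gave at 1 TPM 75.9% (38.1%) above, 4.34% (24.8%) below and a median of 1.00 for PABPN to PABPC, 47.4% (22.6%) below and a median of -0.48 for PABPC against Input, and 2.44% (17.3%) below for PABPN against Input. At 10 TPM it gave, in the same order, 52.1% (24.4%) above and a median of 0.51, 27.1% (16.2%) below and a median of -0.19, and 38.5% (17.9%) above and a median of 0.32. A threshold of 1 gave 39.3% (17.7%) above and 2.81% (11.7%) below for PABPN to PABPC, 17.4% (8.16%) and 0.562% (4.63%) for PABPN against Input, and 0% (0.0695%) and 6.18% (4.82%) for PABPC against Input. Without centring the medians were 0.96 (0.14) for PABPN to PABPC, 1.52 (1.06) for PABPN against Input and 0.65 (0.96) for PABPC against Input, with 95.5% (82.6%) above and 0% (0.706%) below for PABPN and 61.2% (79.2%) above and 0.562% (1.10%) below for PABPC, the last median with its sign turned. No recomputed value moved with a TPM pseudocount of 0, which was run for 9 measures. The same held with 5 TPM required of both IPs in place of Input, or with members of at least 3 finger motifs only. These 2 settings were run for all 21 measures. Values by band, KRAB box, chromosome or list and the correlations were not recomputed. No paired analysis was possible because each fraction has 1 pooled value per gene, and leaving out replicates was not run for the same reason.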

Other observations

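The 245 numbered ZNF genes below an Input TPM of 5 were not members, although those at 1 TPM or more entered the setting with the lower threshold. Their RNA lay further toward the PABPN IP, with a median centred log2 ratio of PABPN to PABPC TPM of 1.10, 205 genes (83.7%) above 0.5 and 1 below -0.5. The 4193 other PCGs below the same threshold had a median of 0.57, with 53.6% above 0.5. Editing above 0 was listed for 48.6% of these ZNF genes in Input, 62.4% with PABPC and 63.3% with PABPN, beside 44.7%, 58.6% and 61.1% of the other PCGs. At least 2-fold more editing in the PABPN IP than in the PABPC IP was seen for 62 of them (25.3%) and at least 2-fold less for 33 (13.5%). The other PCGs below the threshold had the same order, with 1011 (24.1%) and 759 (18.1%). The imprint and retroelement genes ZNF10, ZNF91, ZNF649 and ZNF765 are in this set, with ratios of 1.34, 1.24, 1.09 and 0.73.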
